A study of Danio rerio with 10 samples.

Results

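Genes of sterol synthesis and uptake were measured in liver RNA of zebrafish larvae that overexpress the nuclear fragment of Atf6 (nAtf6) and of their siblings. The genes were chosen by name, as genes of the pathway, with earlier results of these data known, among them that hmgcs1 was high in 1 sibling library: hmgcs1, mvk, idi1, fdps, sqlea, lss, dhcr7, ldlra and srebf2. These 9 names led to 10 of the 32105 Ensembl identifiers in the count tables, because SQLE stands for 2 zebrafish identifiers and the names used here do not say which is the a copy. Both identifiers are reported on their own, and reads shared between such copies would make their counts uncertain.

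At 5 days post fertilization (dpf), 3 pools of 25 nAtf6 TG livers were compared with 3 pools of 25 livers of non-transgenic siblings. The transgene, Tg(fabp10:nAtf6-cherry; cmlc2:GFP)-C, is 1 allele that drives nAtf6 from the hepatocyte promoter fabp10 and marks carriers by GFP in the heart; carriers were crossed to WT TAB 14 fish, and larvae from 3 clutches were sorted by that GFP. At 78 hours post fertilization (hpf), each group held 2 pools of 20 livers, from 2 clutches of a cross with Tg(fabp10a:CAAX-EGFP), which labels hepatocyte membranes, so all larvae of that age were selected for a green liver. The description of the whole series names the second cross for both ages. Ribosomal RNA was removed at 5 dpf (the molecule label of these libraries nevertheless reads polyA RNA), and polyA-tailed RNA was selected at 78 hpf. Age, library preparation and depth therefore differ together, and levels are not compared between ages.

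Hepatocytes make cholesterol from acetyl-CoA through the mevalonate pathway, take it up from lipoproteins through the LDL receptor, and pass it on in lipoproteins and bile acids. In mammals, low sterol in the membrane of the endoplasmic reticulum (ER) lets the carrier Scap bring Srebp2 to the Golgi, where the proteases of sites 1 and 2 release its active fragment, and this fragment turns on the genes of nearly every step of the pathway as well as the LDL receptor. Atf6 is a sensor of ER stress and is released by the same proteases.

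Between 17622825 and 22963880 reads per library were counted on genes at 5 dpf and between 4868321 and 6354867 at 78 hpf, so a count of 0 allows up to 0.131 to 0.170 CPM (counts scaled to library size) at 5 dpf and 0.472 to 0.616 CPM at 78 hpf, for counting error only. CPM values given below were scaled by the trimmed mean of M values (TMM) within each age. Reads of atf6, which include those of the transgene, stood at 440, 540.5 and 543 CPM in nAtf6 TG livers, against 90.6, 96.9 and 78.0 CPM in sibling livers at 5 dpf. At 78 hpf the titles and the names of the deposited libraries give opposite groups. The libraries deposited as Natf6, which are titled sibling, had 185 and 338 CPM of atf6, against 85.7 and 45.8 CPM in those deposited as SIBS, which are titled transgenic. The genes fixed as a check of nAtf6 were atf6, hspa5, hsp90b1, pdia4, sdf2l1 and derl3, the last 5 being genes of the ER stress response. All 6 were higher without overlap in the libraries deposited as Natf6 (19.9% of all genes), with a median log2 fold change of 2.96. At an unadjusted p under 0.05 by edgeR's quasi-likelihood test, all 6 passed (5.97% of all genes), and none after adjustment. hspa5, the ER chaperone BiP, had 11126 and 15132 CPM in the libraries deposited as Natf6, against 2193 and 1215 CPM in those deposited as SIBS. The description of the 78 hpf treatment uses the deposited names. The same 2 libraries form each group either way, and each difference at 78 hpf is given as deposited as Natf6 (titled sibling) minus deposited as SIBS (titled transgenic); by title every sign is the opposite. Hepatocyte markers were high in every library, summing to 25762 to 128910 CPM, and none of the 6 marker lists for hepatocytes and other cells had a gene at 0 in all libraries of an age.

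Within the sibling group at 5 dpf, the genes of sterol synthesis moved together: 1 of the 3 libraries, sibling library 2, stood far above the others. Of the 10 sterol genes, 9 were highest in sibling library 2, as were 42.4% of all 18470 genes tested. In sibling library 2, 8 of the 10 were over 2-fold above each of the other sibling libraries (3.25% of all genes) and 5 were over 4-fold above (0.487% of all genes). The median ratio of sibling library 2 to the mean of sibling libraries 1 and 3 was 4.44 over the 10 genes and 0.991 over all genes with counts in both of those libraries. hmgcs1 is the gene that raised the question of a joint movement, and its own value is therefore no support for it; without it the counts were 8, 7 and 4 of 9 and the median ratio was 4.18. In CPM without TMM scaling, 8 of the 10 were highest in sibling library 2 (11.3% of all genes), 6 were over 2-fold above (1.06%) and 2 over 4-fold above (0.217%), and the median ratios were 3.04 over the 10 genes and 0.678 over all genes. Without hmgcs1 these unscaled counts were 7, 5 and 1 of 9, and the median ratio was 2.86. The values are a description, since 1 library cannot be tested against 2.

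hmgcs1 (ENSDARG00000103025) encodes a synthase of an early step, before mevalonate. It had 1669 CPM in sibling library 2, against 268 and 255 CPM in sibling libraries 1 and 3. Genes of the steps after mevalonate were also highest in sibling library 2. mvk (ENSDARG00000004130), the kinase that phosphorylates mevalonate, had 45.2 CPM in sibling library 2, against 9.33 and 9.90 CPM in libraries 1 and 3. idi1 (ENSDARG00000019976), which interconverts the isoprene units, had 492 CPM, against 109 and 126 CPM. fdps (ENSDARG00000040890) joins these units to farnesyl diphosphate, the last intermediate shared with other isoprenoids, and had 328 CPM, against 64.3 and 72.2 CPM.

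Genes of the steps from squalene on were also highest in sibling library 2, with 1 exception. SQLE (ENSDARG00000079946) encodes squalene epoxidase and had 613 CPM in library 2, against 97.1 and 101 CPM in libraries 1 and 3. lss (ENSDARG00000061274), which closes the sterol rings, had 224 CPM, against 38.6 and 43.3 CPM. dhcr7 (ENSDARG00000103226), a reductase of a final step to cholesterol, had 358 CPM, against 138 and 126 CPM. The exception was the second SQLE identifier, ENSDARG00000063319, which had 0 counts in library 2 and 1 and 5 counts in libraries 1 and 3 and lies near the limit of detection.

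The receptor and the regulator showed smaller ratios. ldlra (ENSDARG00000029476), an LDL receptor, had 573 CPM in sibling library 2, against 269 and 256 CPM in libraries 1 and 3. srebf2 (ENSDARG00000063438), which encodes Srebp2 itself, had 114 CPM, against 80.6 and 77.6 CPM. The ratio of library 2 to the mean of the others was thus 1.44 for srebf2 and 2.18 for ldlra, against 2.71 for dhcr7 and 4.18 to 6.38 for hmgcs1, mvk, idi1, fdps, SQLE (ENSDARG00000079946) and lss. Without TMM scaling srebf2 was no longer highest there, with 86.2 CPM in library 2, against 89.4 and 85.6 CPM in libraries 1 and 3. The median deviation of the sterol genes from the group mean in sibling library 2 was then 1.06 on the log2 scale, with all genes at −0.36; with TMM scaling these were 1.43 and close to 0 (−0.0038).

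**Figure D1:**
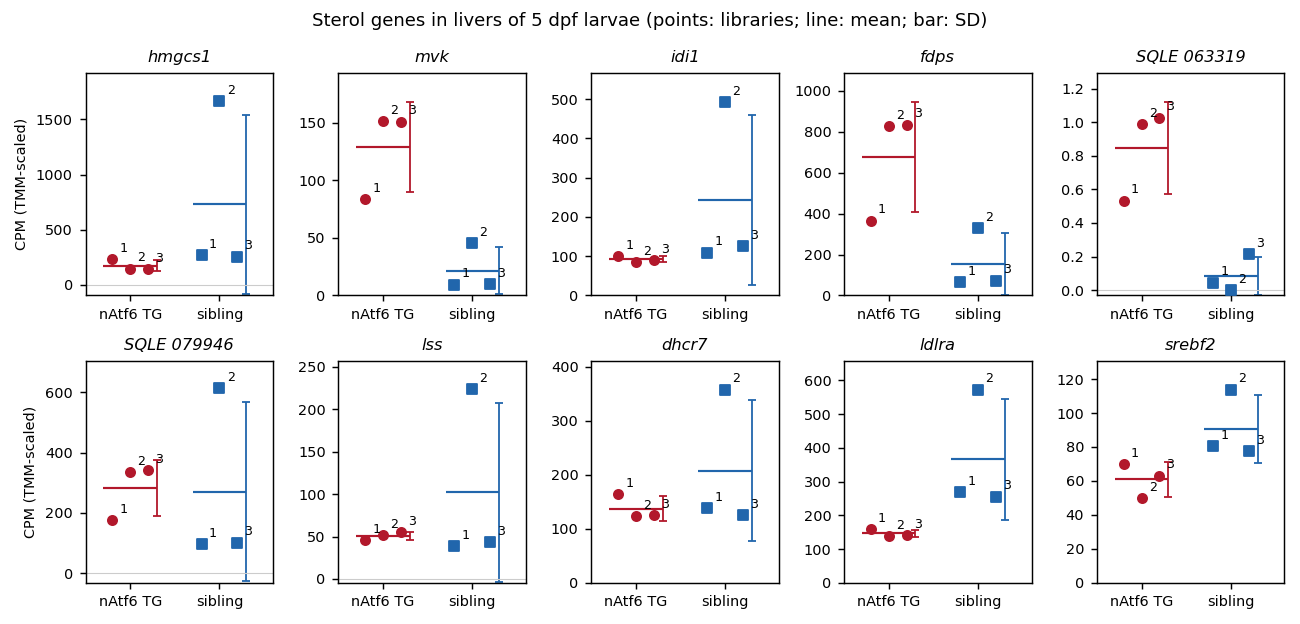
TMM-scaled CPM of the 10 sterol genes in livers of 5 dpf larvae, 1 panel per identifier (the last 6 digits name the SQLE identifiers), with nAtf6 TG libraries as red circles on the left and sibling libraries as blue squares on the right; numbers are library numbers, lines are means and bars are 1 SD (n = 3 each). Sibling library 2 lies above the other siblings in every panel but that of SQLE ENSDARG00000063319 (for srebf2 only with TMM scaling), for example at 1669 CPM for hmgcs1, against 268 and 255 CPM.

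The excess in sibling library 2 extended to other genes of sterol synthesis and less often to 3 lists of related genes, by counts that carry no test. Of 12 other genes of sterol synthesis, 9 were over 2-fold above both other siblings in library 2 (3.25% of all genes). Their median ratio was 3.83, against 0.991 over all genes. The counts of this paragraph are given with TMM scaling only. msmo1, a demethylase of the sterol ring, had 1276 CPM in library 2, against 338 and 307 CPM in libraries 1 and 3. The exceptions included lbr, a sterol reductase that also binds lamin, with 4.62 CPM, against 7.63 and 5.68 CPM. Genes that regulate Srebp were over 2-fold above in 1 of 12 cases (median ratio 1.104), genes of uptake, transport and storage in 3 of 21 (median ratio 0.945), and genes of fatty acid synthesis in 5 of 11 (median ratio 1.62). fasn, the fatty acid synthase, had 283 CPM in library 2, against 53.9 and 50.9 CPM.

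Sibling library 2 also differed in markers of cell types. Hepatocyte markers summed to 128910 CPM in library 2, against 68694 and 79733 CPM in libraries 1 and 3, and 10 of 11 were highest there (42.4% of all genes). Exocrine pancreas markers (9 of 14 names matched) summed to 1481 CPM, against 3160 and 3589 CPM, and all 9 were lowest there (44.1% of all genes). Muscle markers summed to 273 CPM, against 658 and 693 CPM. The TMM factor of the library was 0.758, against 1.11 in both others. In bulk livers, a change in the number of cells of a type and a change in RNA per cell cannot be told apart. The part of these differences in the sterol values was not tested. The ratio of library 2 to the mean of the others was 1.74 for the sum of the hepatocyte markers, and 0.698 (rbp4) to 2.18 (fabp10a) for single markers.

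**Figure D2:**
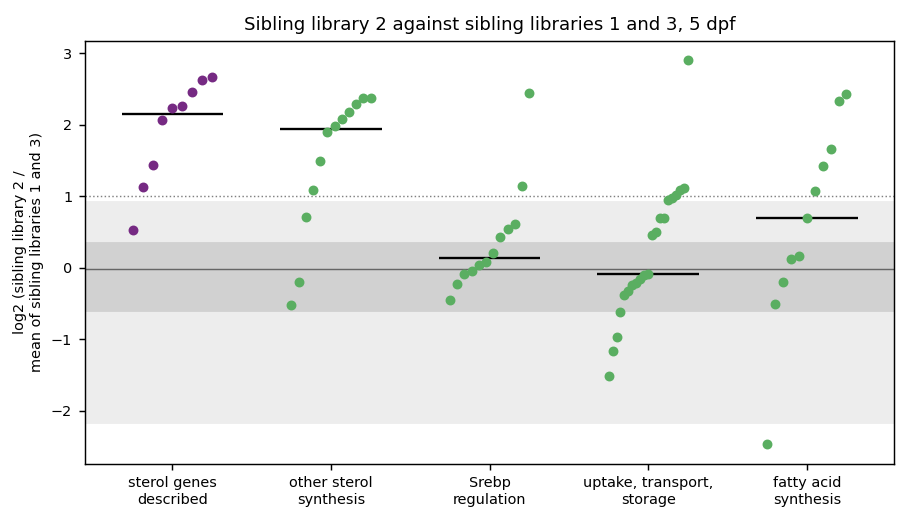
Ratio of sibling library 2 to the mean of sibling libraries 1 and 3 at 5 dpf on a log2 scale, 1 point per gene, for the sterol genes described (purple) and 4 further lists (green); black lines are list medians, the dark and light bands hold the central 50% and 90% of all genes tested, and the dotted line marks a 2-fold excess. The median of the sterol genes was 4.44-fold (4.18-fold without hmgcs1) and that of other sterol synthesis genes 3.83-fold. SQLE ENSDARG00000063319, at 0 counts in library 2, has no point but enters the median.

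Among the nAtf6 TG livers the sterol genes did not move as 1 block. Library 1 stood apart from libraries 2 and 3, which were alike (chi-square per degree of freedom over genes of 2.70 between libraries 2 and 3, against 48.5 and 53.4 between each of them and library 1). In TG library 1, 5 of the 10 sterol genes had their lowest value of the group and the other 5 their highest. All genes tested were lowest there in 44.5% and highest in 42.5% of cases. fdps had 366 CPM in TG library 1, against 826 and 835 CPM in TG libraries 2 and 3. mvk had 83.9 CPM there, against 152 and 151 CPM. hmgcs1 went the other way, with 229.6 CPM in TG library 1, against 145 and 141 CPM. TG library 1 also had the lowest atf6 of its group, and its pancreas markers summed to 1371 CPM, against 840.4 and 837 CPM, and its muscle markers to 435 CPM, against 88.5 and 89.2 CPM; the part of these values was not tested.

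The comparison of nAtf6 TG with sibling livers at 5 dpf asks whether these genes differ in livers whose hepatocytes overexpress nAtf6. Some cell type markers differed between the same groups. Pancreas markers summed to 1371, 840.4 and 837 CPM in nAtf6 TG livers, against 3160, 1481 and 3589 CPM in siblings. At an adjusted p under 0.05 by edgeR, 5 of 9 fell (all genes 7.48%). Of the other markers tested, 2 of 10 for muscle, 3 of 11 for intestine, 1 of 6 for erythrocytes and 2 of 11 for hepatocytes fell (all genes 7.48%). For stellate or endothelial cells 1 of 9 rose (all genes 13.7%). Their part in the sterol values was not tested. With all 6 libraries, 3 of the 10 sterol genes differed at an adjusted p-value under 0.05 (30.0%; all genes 21.2%): mvk and SQLE (ENSDARG00000063319) rose (all genes 13.7%) and ldlra fell (all genes 7.48%). SQLE ENSDARG00000063319 passed the filter on low counts only through the nAtf6 TG libraries, where it was high. Its calls and its lack of overlap are therefore no support, here or below. With at least 10 counts in every library, 2 of 9 were called, mvk and ldlra (all genes 24.6%). The libraries of the groups did not overlap for 7 of the 10, 3 higher and 4 lower in nAtf6 TG, as for 39.8% of all genes (22.6% higher, 17.2% lower). The median log2 fold change over the 10 was −0.58, against −0.036 over all genes. P-values are those of edgeR's quasi-likelihood test, adjusted over all 18470 genes, and fold changes are nAtf6 TG minus sibling on the log2 scale with their standard error (SE). The SE was derived from that test, as the absolute log2 fold change divided by the square root of the F statistic.

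Without sibling library 2, chosen for this because of the values above, 5 of the 10 differed (4 higher, 1 lower), against 37.9% of all genes (19.4% higher, 18.5% lower). Since the choice rests on values of these same genes, the calls and p-values without this library are descriptive only. mvk, fdps and both SQLE identifiers were the genes that rose and ldlra the one that fell, and the median became 0.20, against −0.055 over all genes. The share of sterol genes called (3 and 5 of 10) was within about 1 gene of that of all genes with and without this library. DESeq2 on all 6 libraries called 6 of the 10 (all genes 26.3%): mvk, fdps and SQLE ENSDARG00000063319 higher (all genes 15.0%) and hmgcs1, idi1 and ldlra lower (all genes 11.3%).

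mvk had 83.9, 152 and 151 CPM in nAtf6 TG livers, against 9.33, 45.2 and 9.90 CPM in siblings. All nAtf6 TG libraries lay above all siblings. The log2 fold change was 2.59 ± 0.65 (SE, adjusted p = 0.0308). It was 3.76 without sibling library 2 (adjusted p = 0.000757). The call was lost without TG library 2 or 3 or without sibling library 1 or 3 (adjusted p = 0.102, 0.0991, 0.0932 and 0.0954), while the fold change stayed between 2.22 and 3.76. Over its 12 alternatives the adjusted p ranged between 0.000269 and 0.102.

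fdps had 366, 826 and 835 CPM in nAtf6 TG livers, against 64.3, 328 and 72.2 CPM in siblings. The groups did not overlap, but the highest sibling, library 2, came within 37.8 CPM of the lowest TG library. The log2 fold change was 2.13 ± 0.69 and missed the threshold (adjusted p = 0.0651). Without sibling library 2, chosen by its values, it was 3.32 ± 0.40 (adjusted p = 0.00238). That p-value was the lowest over 12 alternatives, of which the highest was 0.183.

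The SQLE identifiers differed widely in counts. SQLE ENSDARG00000079946 had 177, 334 and 341 CPM in nAtf6 TG livers, against 97.1, 613 and 101 CPM in siblings. All TG libraries lay above sibling libraries 1 and 3 and below library 2. The log2 fold change was 0.07 ± 0.72 (adjusted p = 0.953), and 1.53 ± 0.29 without sibling library 2 (adjusted p = 0.0102; between 0.0102 and 0.982 over 12 alternatives). SQLE ENSDARG00000063319 had 10, 18 and 24 counts in nAtf6 TG livers, against 1, 0 and 5 counts in siblings. Its log2 fold change of 3.10 ± 0.76 (adjusted p = 0.0276) rests on these few reads and depends on the prior count of the fit. This identifier also entered the test only through the nAtf6 TG libraries. The call was lost without TG library 2 or 3 or sibling library 1 (adjusted p = 0.126, 0.135 and 0.120; from 0.00336 to 0.135 over 11 alternatives), and the fold change was 4.76 without sibling library 3.

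ldlra had 158, 139 and 141 CPM in nAtf6 TG livers, against 269, 573 and 256 CPM in siblings. Every nAtf6 TG library lay below every sibling. The log2 fold change was −1.33 ± 0.33 (adjusted p = 0.0308) and −0.83 ± 0.12 without sibling library 2 (adjusted p = 0.00447). The call was lost without any 1 of TG libraries 1, 2 and 3 (adjusted p = 0.0529, 0.140 and 0.136) and in a fit over all 10 libraries (0.0505). Over 12 alternatives the adjusted p ranged between 0.00156 and 0.140. Its paralog ldlrb (ENSDARG00000026759), another LDL receptor gene and not among the 10, went the other way, with 56.5, 61.2 and 69.0 CPM in nAtf6 TG livers, against 11.4, 18.6 and 11.5 CPM in siblings. Its log2 fold change was 2.17 ± 0.24 (adjusted p = 0.00128) and passed in each of 12 alternatives.

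hmgcs1 did not pass the test. It had 229.6, 145 and 141 CPM in nAtf6 TG livers, against 268, 1669 and 255 CPM in siblings, with no overlap and all TG libraries lower. Its log2 fold change was −2.09 ± 0.75 (adjusted p = 0.0857), and −0.59 ± 0.24 without sibling library 2 (adjusted p = 0.0927). Most of the distance between the group means of hmgcs1 therefore lay in 1 sibling library. Over 12 alternatives its adjusted p ranged between 0.00873 and 0.247.

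idi1 had 100.4, 86.0 and 90.2 CPM in nAtf6 TG livers, against 109, 492 and 126 CPM in siblings. The log2 fold change was −1.40 ± 0.56 (adjusted p = 0.116). It was −0.34 without sibling library 2, and the groups did not overlap in either case. srebf2 had 69.8, 49.8 and 63.2 CPM in nAtf6 TG livers, against 80.6, 114 and 77.6 CPM in siblings, again without overlap. Its log2 fold change of −0.57 ± 0.22 missed the threshold (adjusted p = 0.105). srebf2 was the only one of the 10 that kept its direction and its side of the threshold in every alternative run. That side was not called throughout, with adjusted p between 0.0731 and 0.377 over 12 alternatives.

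lss and dhcr7 overlapped between the groups. lss had 45.7, 51.4 and 55.3 CPM in nAtf6 TG livers, against 38.6, 224 and 43.3 CPM in siblings. All 3 TG libraries lay above sibling libraries 1 and 3 and far below library 2, and the log2 fold change was −1.002 ± 0.65 with it and 0.33 ± 0.14 without it (adjusted p = 0.299 and 0.102; between 0.102 and 0.566 over 12 alternatives). dhcr7 had 164, 123 and 125 CPM in nAtf6 TG livers, against 138, 358 and 126 CPM in siblings. Its log2 fold change was −0.59 ± 0.41 with sibling library 2 and 0.079 ± 0.17 without it (adjusted p = 0.330 and 0.734; between 0.225 and 0.734 over 12 alternatives).

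**Figure D3:**
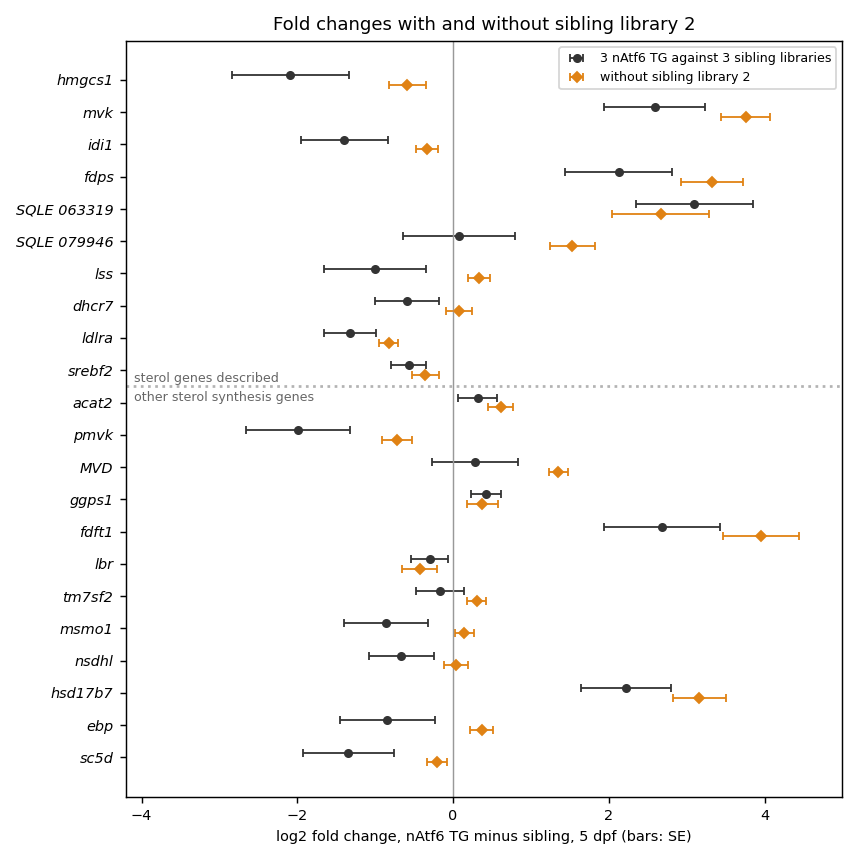
Log2 fold change of nAtf6 TG minus sibling livers at 5 dpf for the 10 sterol genes (above the dotted line) and 12 other genes of sterol synthesis (below it); bars are standard errors. Black circles use all 6 libraries and orange diamonds leave out sibling library 2, which was chosen by the values of these genes. For example, mvk stands at 2.59 and 3.76, and lss at −1.002 and 0.33.

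Among the other 56 sterol and fatty acid genes tested, 20 passed the threshold at 5 dpf (35.7%; all genes 21.2%), 10 in each direction (all genes 13.7% higher and 7.48% lower). The count was 6 without TG library 2 (all genes 6.78%) or 3 (7.07%), 7 without sibling library 1 (9.06%), 9 without sibling library 3 (9.08%), 23 without TG library 1 (28.6%) and 29 without sibling library 2 (37.9%). By list, the share called was 16.7% for sterol synthesis, 33.3% for Srebp regulation, 33.3% for uptake, transport and storage and 63.6% for fatty acid synthesis. In sterol synthesis 2 of 12 rose and 0 fell (median −0.24). fdft1, which makes squalene, had 116, 305 and 321 CPM in nAtf6 TG livers, against 16.8, 83.6 and 15.5 CPM in siblings (log2 fold change 2.68 ± 0.75, adjusted p = 0.0421). hsd17b7, a ketoreductase of the sterol ring, had 96.4, 196 and 190.0 CPM, against 18.5, 67.5 and 17.9 CPM (2.22 ± 0.58, adjusted p = 0.0345). Like mvk and fdps, these genes were lowest in TG library 1 and highest among siblings in library 2. Both calls were lost without TG library 2 or 3 or without sibling library 1 or 3, with adjusted p up to 0.131 for fdft1 and 0.117 for hsd17b7. Without sibling library 2, 4 of the 12 rose (all genes 19.4%), namely acat2, MVD, fdft1 and hsd17b7, and pmvk fell (all genes 18.5%).

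Of 12 genes that regulate Srebp, 2 rose (all genes 13.7%) and 2 fell (all genes 7.48%), with a median of −0.10, against −0.036 over all genes. mbtps1, the protease of site 1, had 49.7, 82.3 and 84.0 CPM in nAtf6 TG livers, against 30.1, 41.5 and 26.8 CPM in siblings (log2 fold change 1.14 ± 0.27, adjusted p = 0.0247). insig1 retains Scap in the ER and had 39.0, 21.7 and 22.0 CPM in nAtf6 TG livers, against 64.5, 47.5 and 65.1 CPM in siblings (−1.10 ± 0.27, adjusted p = 0.0300). In contrast to most of the enzymes of sterol synthesis, insig1 was lowest among siblings in library 2, as was lbr. srebf1, which encodes Srebp1, fell (−0.81 ± 0.22, adjusted p = 0.0365), and erlin1, an ER membrane protein, rose (0.66 ± 0.19, adjusted p = 0.0471). Each of these 4 calls was lost in at least 4 of 12 alternatives, with adjusted p up to 0.108 for mbtps1, 0.293 for insig1, 0.167 for srebf1 and 0.178 for erlin1.

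Of 21 genes of uptake, transport and storage, 2 rose (all genes 13.7%) and 5 fell (all genes 7.48%), with a median of −0.38, against −0.036 over all genes. stard4, a carrier of cholesterol in the cytosol, had 45.2, 81.7 and 90.4 CPM in nAtf6 TG livers, against 12.7, 27.9 and 13.6 CPM in siblings (log2 fold change 2.01 ± 0.39, adjusted p = 0.0126), and ldlrb rose as given above. scarb1, the HDL receptor, had 9.18, 6.70 and 5.87 CPM, against 22.9, 20.1 and 24.7 CPM (−1.64 ± 0.20, adjusted p = 0.00207). lipa, the lysosomal lipase that frees sterol from lipoproteins (−1.63 ± 0.31), abcg8, a subunit of a sterol exporter into bile (−1.33 ± 0.29), ABCA1 (−1.17 ± 0.33) and its relative abca1b (−0.89 ± 0.25) fell as well. Of these 7, scarb1 and ldlrb passed in every alternative, and lipa, stard4, abcg8 and abca1b lost the call in 2, 4, 5 and 5 of 12, with adjusted p up to 0.0736, 0.0581, 0.146 and 0.194. The call of ABCA1 lay near the threshold (adjusted p = 0.0430). Of its alternatives only that without sibling library 2 is given here, where it fell by 0.68.

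Of 11 genes of fatty acid synthesis, 4 rose (all genes 13.7%) and 3 fell (all genes 7.48%), with a median of 0.22, against −0.036 over all genes. scd, a desaturase, had 2.51, 9.94 and 12.0 CPM in nAtf6 TG livers, against 0.539, 0.119 and 0.774 CPM in siblings (log2 fold change 4.02 ± 0.72, adjusted p = 0.00919). acss2, which makes acetyl-CoA from acetate, rose (1.59 ± 0.16), as did the carboxylase acaca (1.56 ± 0.44) and ACLY ENSDARG00000099079, which makes acetyl-CoA from citrate (1.28 ± 0.37). me1, a source of NADPH, had 46.4, 23.3 and 21.0 CPM, against 147, 110.0 and 166 CPM (−2.22 ± 0.35, adjusted p = 0.00545). The elongase elovl6 (−2.14 ± 0.26) and the carboxylase acacb (−1.62 ± 0.36) fell too. The calls of acaca and acacb were lost in 5 and 3 of 12 alternatives, with adjusted p up to 0.147 and 0.103, while those of acss2, me1, elovl6 and, in 11 alternatives, scd passed in each. scd had only 12, 2 and 18 counts in siblings. Like SQLE ENSDARG00000063319, it passed the filter on low counts only through the nAtf6 TG libraries, where it was high. Its calls are therefore no support, also within the counts and shares of called genes given above. The call of ACLY lay near the threshold (adjusted p = 0.0485). Of its alternatives only that without sibling library 2 is given here, where it rose by 1.75. The list thus held changes in both directions.

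The genes whose pattern over the 6 libraries of 5 dpf was nearest to hmgcs1 were ranked by the root mean square difference of log2 CPM after centring each gene, among 7658 genes with a mean log2 CPM of at least 3. The nearest 5 were AMPD3 (0.16), gbp (0.28), RDH11 (0.30), SLC16A12 ENSDARG00000089885 (0.31) and cyp7a1 (0.31). AMPD3 had 20.8, 10.6 and 8.99 CPM in nAtf6 TG livers, against 21.4, 118 and 18.6 CPM in siblings. cyp7a1, the rate-limiting enzyme of bile acid synthesis, had 25.0, 22.3 and 23.6 CPM, against 24.4, 191 and 26.7 CPM. Of the sterol genes, idi1 ranked 11, ldlra 57, lss 80, dhcr7 170 and srebf2 640, while SQLE ENSDARG00000079946 ranked 3455, fdps 7320 and mvk 7409. The ranks start from hmgcs1, which was known to be high in sibling library 2, and they also take in the difference between nAtf6 TG and sibling livers. mvk and fdps ranked low although sibling library 2 stood 4.70-fold and 4.81-fold above the mean of sibling libraries 1 and 3. The ranks describe 6 libraries that share their preparation, and carry no test.

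At 78 hpf, 0 of the 9 sterol genes tested passed edgeR's threshold, as did 0 of all 14555 genes (0.0%). At an unadjusted p under 0.05, 1 sterol gene and 869 genes in all (5.97%) passed, and DESeq2 called 1 sterol gene and 188 genes (1.29%). That gene was mvk. It had 87.4 and 107 CPM in the libraries deposited as Natf6 (titled sibling), against 29.2 and 31.4 CPM in those deposited as SIBS (titled transgenic). The log2 fold change was 1.68 ± 0.22 by edgeR (adjusted p = 0.317) and 1.68 by DESeq2 (adjusted p = 9.00e-05; between 9.00e-05 and 1.00 over 11 alternatives).

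fdps was the other gene without overlap, with 215 and 261 CPM in the libraries deposited as Natf6 (titled sibling), against 190.5 and 145 CPM in those deposited as SIBS (titled transgenic), and a log2 fold change of 0.50 ± 0.26 (adjusted p = 0.814). Of the 9, 2 did not overlap between the groups (39.1% of all genes); these 2 were higher (19.9% of all genes) and 0 were lower (19.3% of all genes). The other 7 had log2 fold changes between −0.63 (ldlra) and 0.18 (srebf2), all with overlap. SQLE ENSDARG00000063319 had 1 and 0 counts in the libraries deposited as Natf6 and 1 and 1 in those deposited as SIBS and was not tested.

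Within the groups of 78 hpf, most sterol genes lay in the same order. Clutch 2 was above clutch 1 in the libraries deposited as Natf6 (titled sibling) for 8 of 9 (49.1% of all genes), and clutch 1 above clutch 2 in those deposited as SIBS (titled transgenic) for 7 of 9 (44.5% of all genes). Both held for 6 of 9, as for 22.9% of all genes, and for 8 of 12 other sterol synthesis genes. hmgcs1 had 478 and 989 CPM in clutches 1 and 2 of the libraries deposited as Natf6, against 1191 and 668 CPM in those deposited as SIBS. The median deviation from the group mean was 0.31 on the log2 scale in either direction for the libraries deposited as Natf6 and 0.25 for those deposited as SIBS. These sizes are not set against those of 5 dpf, since the number of libraries per group and the preparation differ.

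Cell type markers varied between these libraries as well. Pancreas markers summed to 179 and 5549 CPM in clutches 1 and 2 deposited as Natf6 (titled sibling), against 61.6 and 22.7 CPM deposited as SIBS (titled transgenic). Hepatocyte markers summed to 35571 and 39571 CPM, against 67479 and 25762 CPM, and muscle markers to 933 and 77.6 CPM, against 1389 and 5421 CPM. In the library deposited as SIBS from clutch 2, 7 of 9 sterol genes had the lower value of their group, while mvk and srebf2 had the higher. This library had the fewest hepatocyte and the most muscle reads of its age. It also had the most reads of stellate or endothelial markers (6178 CPM, of which col1a1a 5120 CPM) and of erythrocyte markers (992 CPM, of which hbae3 914 CPM). Among the stellate or endothelial markers, acta2 (11.8 CPM) and stab2 (7.76 CPM) were not highest in this library, while the others were. The part of these markers in the sterol values was not tested.

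**Figure D4:**
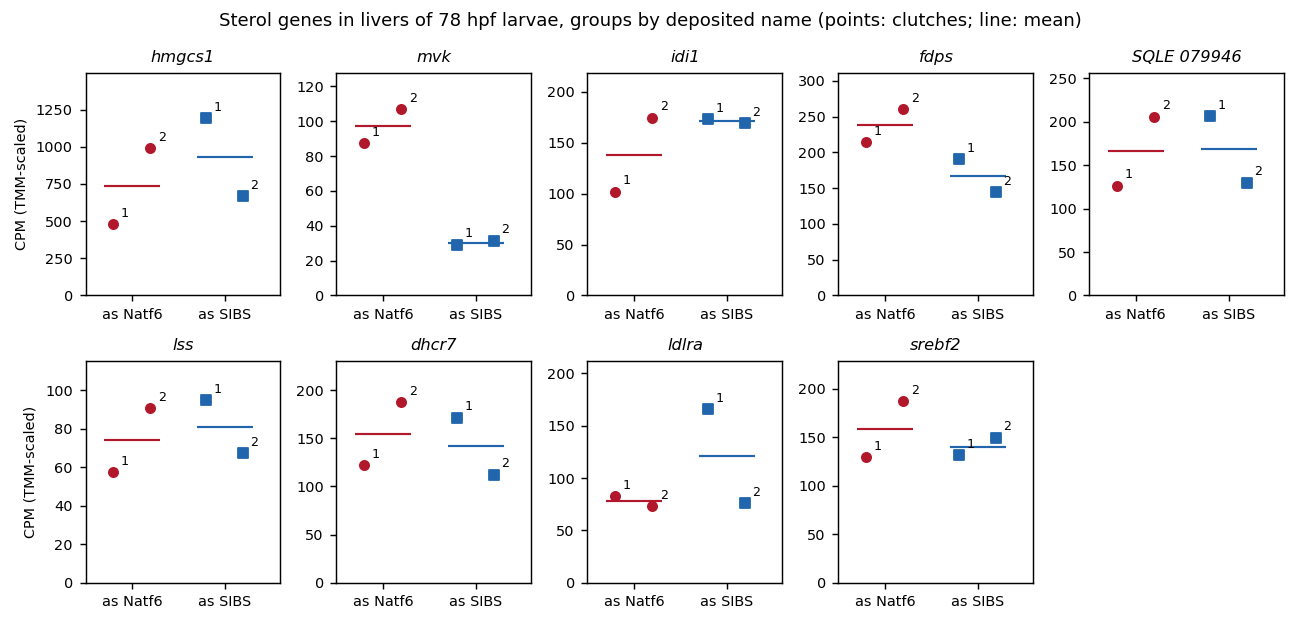
TMM-scaled CPM of the 9 sterol genes tested in livers of 78 hpf larvae, with libraries deposited as Natf6 (titled sibling) as red circles on the left and those deposited as SIBS (titled transgenic) as blue squares on the right; numbers are clutch numbers of the titles and lines are means (n = 2 each). mvk, at 87.4 and 107 CPM against 29.2 and 31.4 CPM, and fdps are the panels without overlap.

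The difference between the ages was tested in 1 model over all 10 libraries, as the 78 hpf difference minus that of 5 dpf. It passed for 0 of the 10 sterol genes by edgeR, with 0 at an unadjusted p under 0.05 (13.2% of all genes) and 0 by DESeq2, and for 14 of 20595 genes in all (0.068%). The difference was −0.73 ± 0.90 for mvk (adjusted p = 0.767) and 1.93 ± 1.13 for hmgcs1 (adjusted p = 0.492). With the 78 hpf groups taken by title, the difference for mvk was −4.40 (adjusted p = 0.0185; the range over 14 alternatives reached 0.916), and mvk was then the 1 sterol gene called, with 8.67% of all genes. By title only the sign of the 78 hpf difference changes. mvk was higher in nAtf6 TG livers at 5 dpf and higher in the libraries deposited as Natf6 at 78 hpf. The 6 check genes of nAtf6 were also higher in those libraries. Since age and library preparation cannot be told apart, the sizes of these differences between ages do not measure an effect of age.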

How the data were processed

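RNA of pooled, dissected livers was sequenced on a NextSeq550. The authors deposited raw counts of reads per Ensembl gene; their processing notes name GRCz10, HTSeq and DESeq2 for all libraries, FastQC 0.11.5, Trimmomatic and TopHat2 2.1.0 for 5 dpf, and CASAVA and MultiQC 1.7 for 78 hpf, without their roles; the annotation release and, at 78 hpf, the aligner are not given in the sources used here. Special entries of htseq-count, which name no gene, held 35.3% to 47.4% of the reads at 78 hpf and were left out. Symbols were available for 26269 identifiers, of which 4301 share theirs with another.

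The quasi-likelihood test of edgeR 4.0.16 (R 4.3.3) was run on the counts after filterByExpr and TMM, with Benjamini-Hochberg adjustment over all genes and calls at an adjusted p under 0.05, for each age alone and, for the difference between ages, with all 10 libraries. Scripts were tested on simulated data. CPM are TMM-scaled, with a prior count of 2 on the log2 scale. DESeq2 1.42.0, other scaling and filters, a block on the replicate number, a common fit and the omission of each library were alternatives. Libraries were grouped by titles, and each difference at 78 hpf was taken as deposited as Natf6 minus deposited as SIBS. Replicates are pools of larvae. The smallest chi-square between 2 pools of a group was 2.70 per degree of freedom (TG libraries 2 and 3), against 11.6 to 77.8 for the other pairs. No library was counted as a repeat of another, but this measure cannot show that TG libraries 2 and 3 are independent pools. Titles at 78 hpf give clutch numbers, which pair the libraries; same-numbered libraries had deviations correlated at −0.145 over 14555 genes. The numbers in the deposited names do not all match the clutch numbers.

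The sterol genes and the other lists were chosen with earlier results of these data known. Some genes of these lists are not reported here. Named were all 10 sterol identifiers; of the other lists, all genes called at 5 dpf in sterol synthesis and Srebp regulation and the 3 highest and 3 lowest called in uptake and fatty acid synthesis; and the 5 nearest patterns to hmgcs1. ABCA1, ACLY and genes named for sibling library 2 alone were added after their values were seen. Marker lists for intestine, erythrocytes and stellate or endothelial cells summed in sibling library 2 to 1.58, 0.698 and 1.14 times the mean of sibling libraries 1 and 3. The median ratios of single markers were 0.442, 0.752 and 0.754, and 9 of 12, 7 of 9 and 6 of 9 were lowest there (44.1% of all genes). The sum for intestine was carried by apoa4b.1, with 3612 CPM in library 2, against 1627 and 1847 CPM. No sequences or coordinates are given.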

Additional observations from a re-analysis of the deposited data

How the results depend on the processing

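Of 29 genes named and tested at 5 dpf, 8 kept their direction and side of the threshold in every alternative. Among these 8, 1 was a sterol gene (srebf2, not called in any). The 8 also include scd, which entered the test only through the nAtf6 TG libraries. The number of sterol genes called at 5 dpf, 3, was 6 with DESeq2 (also hmgcs1, idi1 and fdps) and 0 to 5 when 1 library was left out (0 without TG library 2 or 3, 1 without sibling library 1, 5 without sibling library 2). That of other sterol pathway genes, 20, was 6 to 29. At 78 hpf 1 sterol gene was called with DESeq2 in place of 0 (0 in each leave-out), and between ages 1 with the direction by titles in place of 0 (0 in each leave-out). With the replicate block at 5 dpf, 3 sterol genes were called, 2 of them the same: fdps was gained and ldlra lost (adjusted p = 0.0514), and 3128 in place of 3913 of all genes passed. The numbers of 5 dpf are not stated to pair the pools: same-numbered pools correlated at 0.091, 0.070 and −0.072, and TG pool 3 correlated best with another number. At 78 hpf the block, and a crossed pairing added after seeing the data, gave 0 calls as well, and the block changed no other call between the ages. Some log2 fold changes that missed the threshold changed sign, from causes not tested: at 5 dpf, with 1 library left out, SQLE ENSDARG00000079946 (−0.34 to 1.53), lss (−1.40 to 0.33) and dhcr7 (−0.86 to 0.079); at 78 hpf, likewise, hmgcs1 (−0.95 to 0.20), idi1 (−0.73 to 0.042), SQLE ENSDARG00000079946 (−0.40 to 0.43; 0.013 without a filter, 0.14 with all 10 libraries), lss (−0.48 to 0.21; 0.026 with all 10 libraries), dhcr7 (−0.20 to 0.53), ldlra (−1.09 to 0.11) and srebf2 (−0.087 to 0.43). The difference between ages changed sign for SQLE ENSDARG00000079946 (−1.43 to 0.53; −0.18 by titles, −0.50 with the replicate block) and lss (−0.34 to 1.46). A minimum of 10 counts in every library removed SQLE ENSDARG00000063319 and scd from the tests. Library medians of the sterol genes moved by less than their spread under each scaling and prior count.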

Other observations

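Genes other than the 10 sterol genes were also high in sibling library 2 at 5 dpf; those named here were chosen after their values were seen. cyp7a1 was 7.50-fold above the mean of sibling libraries 1 and 3. MYLIP ENSDARG00000055118, a ligase that in mammals marks the LDL receptor for degradation, had 49.4 CPM in library 2, against 9.02 and 9.08 CPM in libraries 1 and 3. MID1IP1, which in mammals promotes the activity of acetyl-CoA carboxylase, had 200.1 CPM, against 37.1 and 42.7 CPM. pnpla3, a lipid droplet protein, had 168 CPM, against 53.8 and 52.5 CPM. CYP51A1, the demethylase of lanosterol, ranked 7 by likeness to hmgcs1, with 114, 103 and 109.7 CPM in nAtf6 TG livers, against 243, 1071 and 248 CPM in siblings. Some genes of the same lists were low in library 2: soat2, which esterifies cholesterol, had 13.1 CPM there, against 28.6 and 30.2 CPM, and abca1b had 33.7 CPM, against 50.5 and 53.2 CPM. No test was run on these values, since they set 1 library against 2.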
